A study of Mus musculus with 5 samples.

Results

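RNA-Seq of AOM/DSS-induced colon tumors was examined for 33 genes that build the N-glycan precursor and attach it to protein. They were taken by gene symbol from the 52143 entries of the expression table, and 31 of them were among the 10338 genes expressed highly enough to be tested. Azoxymethane (AOM) is a carcinogen and dextran sulfate sodium (DSS) injures the colon epithelium. The list was proposed with results of these same samples known, in which Dpm3 stood near the top, so the members were in part chosen by the change between the groups, which is given below as a description. The value behind that choice, the log2 fold change of Dpm3, was 1.38.

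The 5 female mice came from the same breeding and were treated alike. The 2 Control mice, replicates 1 and 4, were littermates that carried only Villin1-Cre, a tamoxifen-activated Cre recombinase under the promoter of Villin1, which is active in intestinal epithelium. The 3 SIGLEC12 mice, replicates 2, 3 and 4, also carried 1 floxed knock-in allele of human SIGLEC12 in ROSA26, read from a CAG promoter once Cre has acted. Both groups received tamoxifen at 10 mg/ml for 5 days from 8 weeks of age, AOM at 10 mg/kg, and 4 cycles of 2.0% DSS for 5 days with 14 days of recovery, up to day 87. The human gene had 0 entries in the table, so the knock-in was not checked by its own transcript. By the series text each condition had 3 mice, so another Control mouse is not used here.

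N-glycosylation begins in the membrane of the endoplasmic reticulum (ER). A sugar chain is built step by step on the lipid dolichol, first on the cytosolic face and then, after it has been flipped across the membrane, on the luminal face. Mannose for the luminal steps arrives as dolichol phosphate mannose, which dolichol phosphate mannose synthase makes from GDP-mannose. The oligosaccharyltransferase (OST) then moves the finished chain onto asparagine residues of proteins entering the ER. In the colon the secreted mucins and most surface receptors of the epithelium carry such chains.

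The promoter sequences of a few members are shown first, because members of the same enzyme differed in their change between the groups. Of the 33 genes, 27 were in the RefSeq promoter table (GRCm38.p6). The stretches below lie within 250 bases before the RefSeq start site and leave out every base inside an annotated exon. Dpm2 and Dpm3 encode partner subunits of dolichol phosphate mannose synthase, Ddost encodes the OST subunit with the highest level here, and Alg12 encodes a luminal mannosyltransferase. Capitals mark the CCAAT box (CCAAT or ATTGG), the core of the cAMP response element (TGACGT or ACGTCA) and, in Alg12, the whole ER stress response element (CCAAT, 9 bases of any kind, CCACG).
Dpm2, chr2:32570608-32570857, plus strand: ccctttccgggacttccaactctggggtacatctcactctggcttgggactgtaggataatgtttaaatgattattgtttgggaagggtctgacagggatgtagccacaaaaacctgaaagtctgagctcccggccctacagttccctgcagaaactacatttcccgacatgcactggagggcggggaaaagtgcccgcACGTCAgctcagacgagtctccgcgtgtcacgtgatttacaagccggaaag
Dpm3, chr3:89266211-89266362, plus strand: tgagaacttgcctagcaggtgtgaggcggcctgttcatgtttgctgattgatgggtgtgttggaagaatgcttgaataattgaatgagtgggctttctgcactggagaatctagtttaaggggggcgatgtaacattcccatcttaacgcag
Ddost, chr4:138304488-138304729, plus strand: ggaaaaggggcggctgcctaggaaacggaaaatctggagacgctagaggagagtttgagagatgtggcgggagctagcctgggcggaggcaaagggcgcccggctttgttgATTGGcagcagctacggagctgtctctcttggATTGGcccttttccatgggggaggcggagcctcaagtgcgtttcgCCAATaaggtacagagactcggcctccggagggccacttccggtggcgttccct
Alg12, chr15:88819319-88819568, minus strand: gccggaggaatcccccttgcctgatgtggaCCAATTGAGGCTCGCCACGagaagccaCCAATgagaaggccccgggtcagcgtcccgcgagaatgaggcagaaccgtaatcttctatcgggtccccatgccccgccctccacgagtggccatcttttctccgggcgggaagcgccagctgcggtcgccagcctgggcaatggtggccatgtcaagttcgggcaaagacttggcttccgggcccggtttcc
The Ddost stretch held 3 CCAAT boxes and the Dpm3 stretch held neither motif. The Dpm3 start site of RefSeq lies 7103 bases inside the gene as annotated by GENCODE, so its stretch is the region before the inner start. Searched on both strands over the full 250 bases, the CCAAT box was in 12 of the 27 members, against 39.5% of 17491 protein-coding genes. TGACGT was in 3 of the 27 (Dpm1, Dpm2 and Mpdu1), against 8.43%. The ER stress response element, which contains a CCAAT box, was in Alg12 alone of the 27, against 0.154%. The GC box (GGGCGG) was in 16 of 27, against 45.8%, and the TATA box (TATAAA) was in 2 of 27, against 13.7%. These counts describe letters in a window and were not tested.

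All levels are the deposited log2(TPM + 1), where TPM is the abundance of an RNA relative to all RNA of its sample. Protein-coding genes took only 5.70% and 6.73% of the total in Control and 8.75% to 9.72% in SIGLEC12, the rest being mostly 4 entries annotated as microRNA genes (77.2% to 85.9%). As a result the median log2 fold change of all genes tested was 0.38 in favor of SIGLEC12. Each change is therefore also given after scaling all samples to their mean protein-coding sum, called rescaled below, where that median was 0.01. Control replicate 1 stood apart from the other 4 samples, with the highest mean level of 8 squamous epithelium markers (6.75, against 4.82 to 5.77) and the lowest of 12 columnar epithelium markers (4.06, against 5.40 to 6.27). Read depth is unknown, since TPM keeps no counts.

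The 33 genes were expressed at low to moderate levels, and most lay higher in the SIGLEC12 tumors by more than the shift of all genes. Over the 5 samples the mean TPM ran from 21.8 for Ddost to 0.472 for Alg6, and 8 genes of the list exceeded 10 TPM, of which 6 were OST subunits. The median log2 fold change was 0.61 over the 31 genes tested and 0.56 over all 33, against 0.38 for all genes tested. After rescaling it was 0.19 over the 31 and 0.19 over the 33, against 0.01. Of the 31, 26 lay above the median of all genes as deposited, and 27 were above 0 after rescaling, against 51.1% of all genes. Both counts include Dpm3, the gene behind the choice, and Dolk, Alg11 and Alg12, and the 27 also include Alg1. Dolk, Alg1, Alg11 and Alg12 entered the test only through their SIGLEC12 samples, and Alg6 and Alg13 did not enter it.

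**Figure D1:**
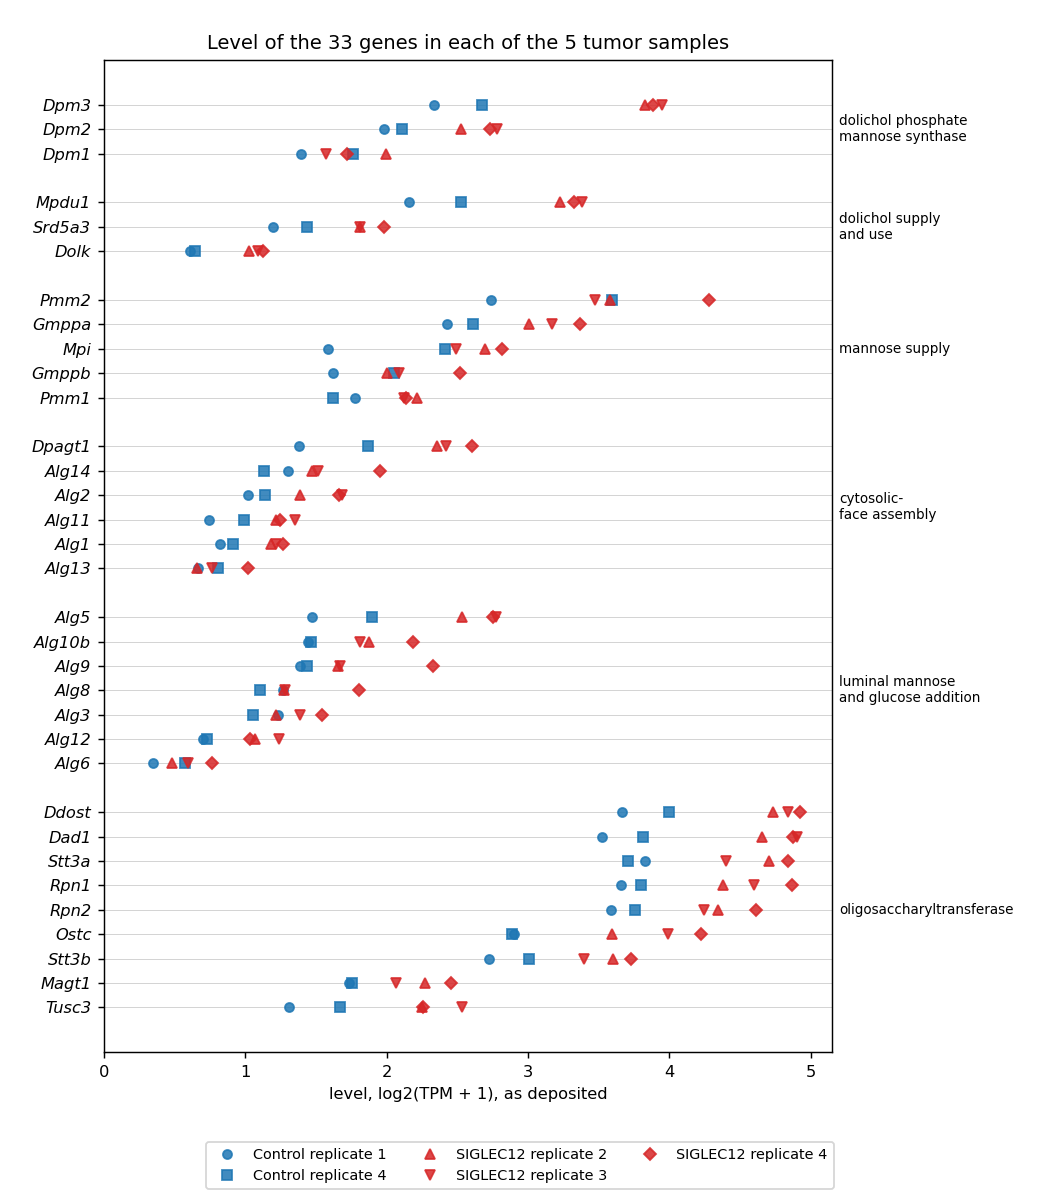
Level of each of the 33 genes, as log2(TPM + 1) on the horizontal axis, in each tumor sample (blue, 2 Control, and red, 3 SIGLEC12), by role. All 9 OST genes have their 3 SIGLEC12 points to the right of both Control points, as do 54.1% of all genes tested. Dpm1, Pmm2, Gmppb, Alg3, Alg6 and Alg13 have mixed points.

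At an unadjusted limma p no higher than 0.05 with at least a 2-fold difference, 5 of the 31 were higher in SIGLEC12 (Dpm3, Dad1, Ostc, Alg5 and Ddost), where 3.97% of all genes tested were. None of the 31 was lower, where 0.445% of all genes were. Without the fold limit 22 of 31 were higher, against 33.4% of all genes. In 27 of 31 every SIGLEC12 sample lay above both Control samples, against 54.1% of all genes, and in 0 the reverse held, against 1.67%. The 27 include Dpm3, the gene behind the choice, and Dolk, Alg1, Alg11 and Alg12. These last could pass the filter only with SIGLEC12 samples above both Control samples, so their lack of overlap is not a finding. The 22 include Dpm3, Dolk and Alg11. With Benjamini-Hochberg adjustment over all genes (limma), 0 of 31 were higher and 0 lower at an adjusted p under 0.05, as was the case for 0% of all genes in either direction, and the smallest adjusted p of any gene was 0.0974. Because the list was chosen with this contrast known, the counts are set beside the background without a reading.

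Scaling took away the 2-fold differences and left fewer genes apart. After rescaling 0 of 31 were at least 2-fold higher, against 0.368% of all genes. There 8 of 31 were higher at an unadjusted p of at most 0.05 (Dpm3, Mpdu1, Dpagt1, Alg5, Ddost, Dad1, Ostc and Tusc3), against 4.45%, and 0 were lower, against 6.31%. The groups did not overlap in 17 of 31, all higher in SIGLEC12, against 15.6% of all genes higher and 16.8% lower. The 17 include Dpm3, Dolk and Alg1. As deposited, leaving out Control replicate 1 left 2 genes at the 2-fold threshold, against 1.38% of all genes, and leaving out SIGLEC12 replicate 4 also left 2, against 4.27%. Leaving out Control replicate 4, so that replicate 1 stood alone for its group, gave 10, against 13.2% of all genes in that fit.

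**Figure D2:**
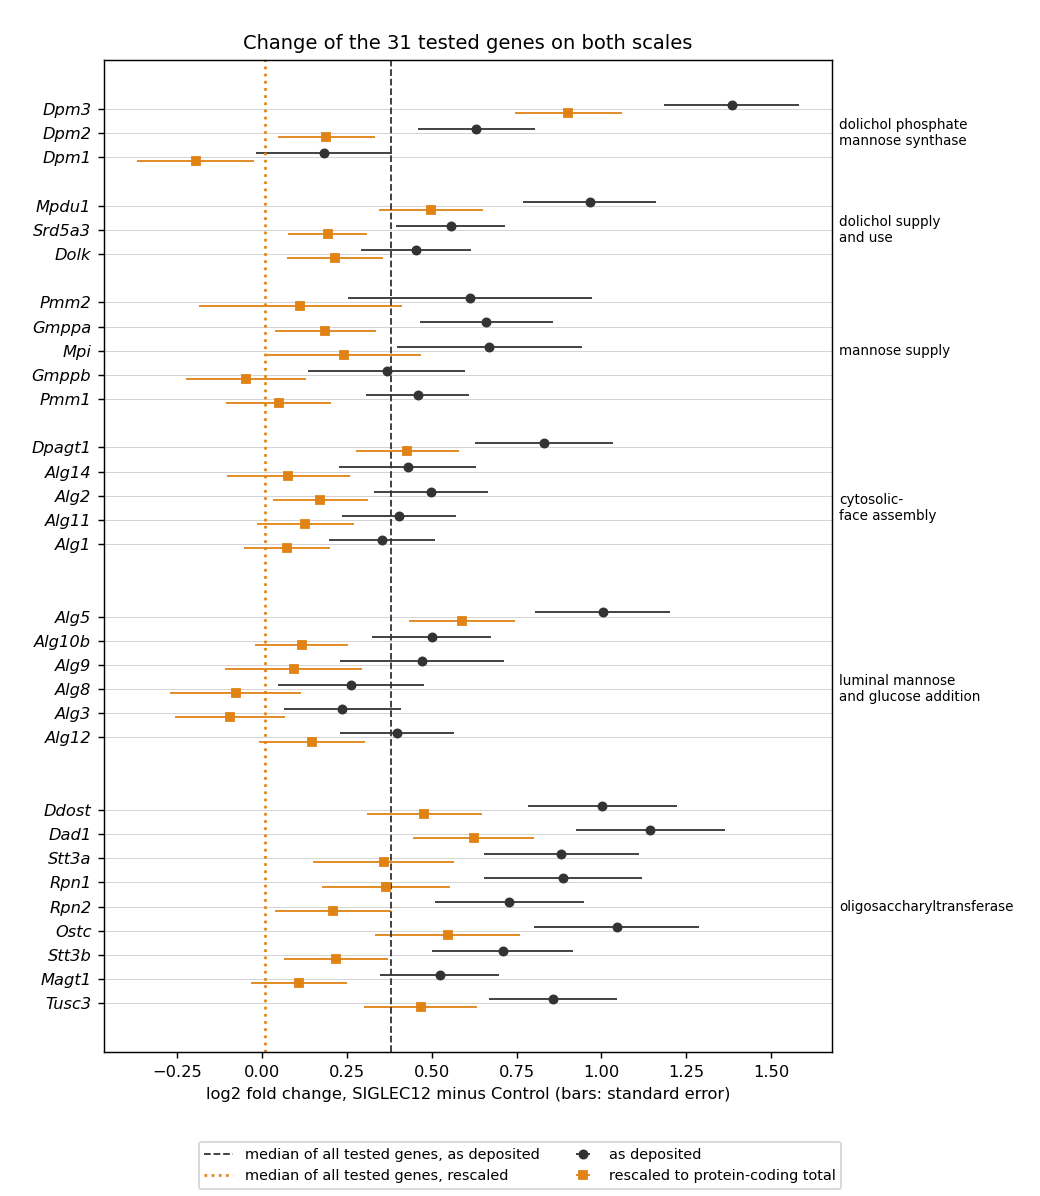
Log2 fold change of the 31 tested genes with its standard error, as deposited (black) and rescaled (orange), with dashed and dotted lines at the medians of all tested genes (0.38 and 0.01). Dpm3 lies farthest to the right on both scales, Dpm1 farthest to the left, and every OST gene lies to the right of the line of its own scale.

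Dolichol phosphate mannose synthase has a catalytic subunit, Dpm1, and the small membrane proteins Dpm2 and Dpm3, of which Dpm3 tethers Dpm1 to the ER membrane and Dpm2 stabilizes Dpm3. The 3 genes differed widely in their change. Dpm3 (ENSMUSG00000042737, GRCm38 chromosome 3, 89259358 to 89267079, plus strand) was 2.33 and 2.67 in Control and 3.83, 3.94 and 3.89 in SIGLEC12. Its SIGLEC12 samples were nearly level and all lay above the Control samples by more than 1 unit, a log2 fold change of 1.38 (SE 0.20) as deposited and 0.90 (SE 0.16) rescaled. Dpm2 (ENSMUSG00000026810, chromosome 2, 32570858 to 32573579, plus strand) was 1.98 and 2.11 in Control and 2.52, 2.78 and 2.73 in SIGLEC12, also without overlap. Its log2 fold change was 0.63 (SE 0.17), or 0.19 (SE 0.14) rescaled.

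Dpm1 (ENSMUSG00000078919, chromosome 2, 168209048 to 168230591, minus strand) did not separate the groups. It was 1.40 and 1.76 in Control and 2.00, 1.57 and 1.72 in SIGLEC12. The log2 fold change was 0.18 (SE 0.20) and turned to -0.19 (SE 0.17) after rescaling. Dpm1 shares its strand and bases with the entry Gm20716, whose TPM was 1.64 and 1.74 in Control and 2.61, 2.69 and 2.63 in SIGLEC12, so reads may be divided between them. Of the other same-strand overlaps, those of Gmppb and Alg10b were listed at 0 in all samples, and those of Stt3b and Alg14 reached at most 0.163 and 0.187 TPM. Ostc overlaps Gm42998, for which no value is used here. A ratio within a sample does not depend on the scaling of that sample. The log2 ratio of Dpm3 to Dpm1 was 1.31 and 1.17 in Control and 2.14, 2.87 and 2.58 in SIGLEC12. That of Dpm3 to Dpm2 was 0.45 and 0.70 in Control and 1.48, 1.29 and 1.29 in SIGLEC12. Both ratios involve the gene behind the choice and carry no test. The log2 ratio of Dpm2 to Dpm1, which leaves Dpm3 out, was 0.86 and 0.47 in Control and 0.67, 1.58 and 1.29 in SIGLEC12. It overlapped between the groups, with a difference of means of 0.52 (exact two-sided permutation p = 0.3, adjusted p = 0.667 over 5 ratios).

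**Figure D3:**
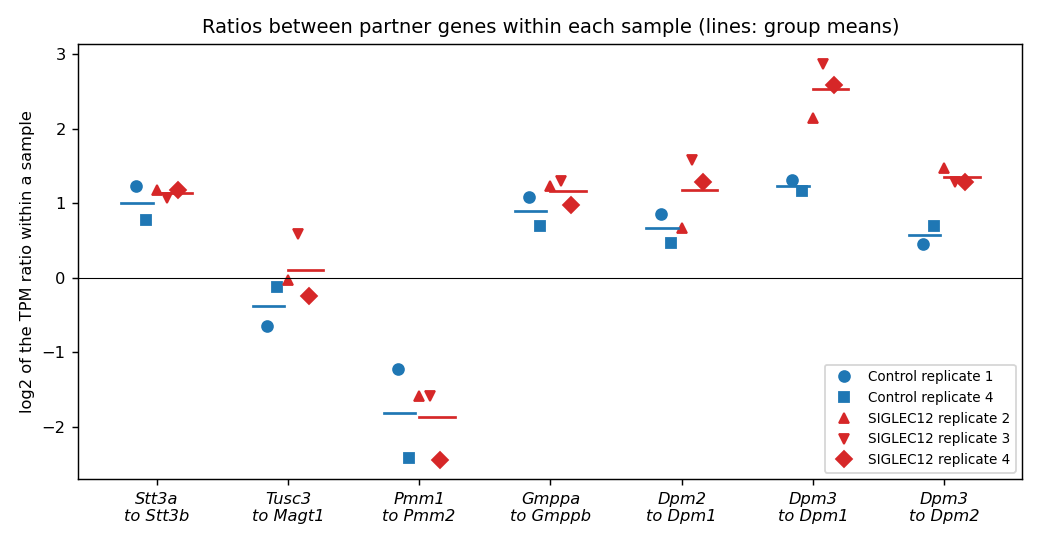
Log2 of the TPM ratio between partner genes within each sample, blue for Control and red for SIGLEC12, with short lines at the group means. The ratios of Dpm3 to Dpm1 and of Dpm3 to Dpm2 are higher in all 3 SIGLEC12 mice than in either Control mouse, and the other 5 ratios overlap between the groups.

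Among the genes that supply and use dolichol-linked sugar donors, Mpdu1 stood out. Its product is needed for the use of dolichol-linked mannose and glucose in the lumen. Mpdu1 (chromosome 11, 69656697 to 69662642, minus strand) was 2.16 and 2.53 in Control and 3.23, 3.38 and 3.32 in SIGLEC12. The groups did not overlap, and its log2 fold change of 0.97 (SE 0.20, rescaled change 0.50) fell just short of the 2-fold line that Alg5 and Ddost just passed. Dolk, the kinase that makes dolichol phosphate, was low throughout, at 0.61 and 0.64 in Control and 1.03, 1.09 and 1.13 in SIGLEC12 (log2 fold change 0.45, or 0.22 rescaled). Srd5a3, the reductase that completes dolichol, lay between them at 0.56 (0.19 rescaled).

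Of the 5 mannose supply genes, Pmm2 and Gmppb overlapped between the groups. They convert fructose 6-phosphate (Mpi) and mannose 6-phosphate (Pmm1, Pmm2) and make GDP-mannose (Gmppb, with the regulatory Gmppa). Pmm2 was 2.74 and 3.59 in Control and 3.58, 3.47 and 4.28 in SIGLEC12, so that Control replicate 4 lay above 2 SIGLEC12 samples. Mpi had the largest log2 fold change of the 5 genes (0.67, SE 0.27), and read 1.58 and 2.41 in Control against 2.69, 2.49 and 2.82 in SIGLEC12. In both genes Control replicate 1 was far below Control replicate 4, and without replicate 1 the log2 fold change was 0.19 for Pmm2 and 0.26 for Mpi. Gmppa was 2.43 and 2.61 in Control and 3.01, 3.17 and 3.37 in SIGLEC12. Gmppb had the smallest change of the 5, at 1.62 and 2.05 in Control and 2.00, 2.09 and 2.52 in SIGLEC12 (0.37, or -0.05 rescaled). Pmm1 was 1.78 and 1.62 in Control and 2.22, 2.12 and 2.13 in SIGLEC12, and its difference of 0.46 shrank to 0.05 after rescaling. Neither the log2 ratio of Pmm1 to Pmm2 (difference -0.05, exact two-sided permutation p = 0.9, adjusted p = 0.9) nor that of Gmppa to Gmppb (difference 0.28, exact two-sided permutation p = 0.3, adjusted p = 0.667) separated the groups.

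On the cytosolic face Dpagt1 starts the chain by adding the first sugar phosphate to dolichol phosphate, Alg13 and Alg14 form the next enzyme, and Alg1, Alg2 and Alg11 add mannose. Dpagt1 was 1.38 and 1.87 in Control and 2.35, 2.42 and 2.60 in SIGLEC12. With a log2 fold change of 0.83 (SE 0.20, rescaled change 0.43) it had the largest change among these 6 genes. The other 4 tested genes lay between 0.35 (Alg1) and 0.50 (Alg2), close to the median of all genes. Alg1 was 0.82 and 0.92 in Control and 1.18, 1.22 and 1.27 in SIGLEC12. Alg13, at 0.67 and 0.81 in Control and 0.66, 0.76 and 1.02 in SIGLEC12, was too low to test and overlapped. Its partner Alg14 did not overlap as deposited (1.30 and 1.13 against 1.47, 1.51 and 1.96), where 54.1% of all genes were wholly higher. Rescaled, Alg14 overlapped too (1.61 and 1.27 against 1.38, 1.42 and 1.75).

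On the luminal face Alg3, Alg9 and Alg12 add mannose, Alg6, Alg8 and Alg10b add glucose, and Alg5 makes the dolichol phosphate glucose that the last 3 consume. Alg5 (chromosome 3, 54735539 to 54751318, plus strand) was 1.47 and 1.90 in Control and 2.53, 2.78 and 2.76 in SIGLEC12. This was a clear gap, with a log2 fold change of 1.004 (SE 0.20, rescaled change 0.59). The other 5 tested genes of this step had changes from 0.24 to 0.50 as deposited and from -0.09 to 0.15 rescaled. Alg3 had the smallest, at 1.23 and 1.06 in Control and 1.22, 1.39 and 1.54 in SIGLEC12. Alg8, at 1.27 and 1.11 in Control and 1.27, 1.28 and 1.80 in SIGLEC12, was one of the 27 genes without overlap but touched at its margin. Alg3, Alg6, Alg8, Alg9 and Alg10b were each highest in SIGLEC12 replicate 4, the sample with the largest protein-coding share (9.72%). Alg5 and Alg12 were highest in SIGLEC12 replicate 3. Alg6 was the lowest gene of the list in every sample, at 0.35 and 0.57 in Control and 0.48, 0.59 and 0.76 in SIGLEC12.

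All 9 OST genes had a change above 0 on both scales, against 87.2% of all genes tested as deposited and 51.1% rescaled. The complex has a catalytic subunit (Stt3a or Stt3b), shared subunits (Rpn1, Rpn2, Ddost and Dad1), Ostc, which belongs to the Stt3a form that works at the translocon, and the oxidoreductases Tusc3 and Magt1 of the Stt3b form. All 9 genes lay above the median of all genes on both scales, with a median log2 fold change of 0.88 (0.37 rescaled). In all 9 SIGLEC12 lay wholly higher as deposited, against 54.1% of all genes. After rescaling Stt3a and Magt1 overlapped and the other 7 did not, against 15.6% of all genes wholly higher. The mean level over the 9 genes was 2.99 and 3.15 in Control and 3.84, 3.89 and 4.09 in SIGLEC12, and 3.41 and 3.36 against 3.70, 3.76 and 3.82 rescaled. Without Control replicate 1 the median of the 9 was 0.82, or 0.41 rescaled. The 3809 protein-coding genes whose mean level lay within the range of these 9 had a median of 0.51 (quartiles 0.28 and 0.73), or 0.05 rescaled (quartiles -0.17 and 0.26).

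Dad1 (chromosome 14, 54235479 to 54254104, minus strand), a small subunit named for its loss causing cell death, had the largest change of the 9. It was 3.52 and 3.81 in Control and 4.65, 4.91 and 4.87 in SIGLEC12, which is 1.14 higher on the log2 scale (SE 0.22, rescaled change 0.62). Ostc (chromosome 3, 130695912 to 130709444, minus strand) was nearly equal in the Control samples, at 2.90 and 2.89, and spread over 3.59, 3.99 and 4.22 in SIGLEC12 (1.04, SE 0.24, rescaled change 0.55). Ddost (chromosome 4, 138304730 to 138312628, plus strand), whose promoter stretch is printed above, was 3.66 and 3.998 in Control and 4.74, 4.84 and 4.92 in SIGLEC12 (1.002, SE 0.22, rescaled change 0.48). These 3 were the OST genes past 2-fold as deposited, and there the lowest SIGLEC12 sample of each stood well above the higher Control sample. Rescaled, these 2 values were 4.51 and 4.04 for Dad1, 3.45 and 3.32 for Ostc, and 4.59 and 4.22 for Ddost. Rpn1 was 3.66 and 3.80 in Control and 4.38, 4.60 and 4.87 in SIGLEC12 (0.89, SE 0.23, rescaled change 0.37). Rpn2 was 3.59 and 3.76 in Control and 4.34, 4.25 and 4.62 in SIGLEC12 (0.73, SE 0.22, rescaled change 0.21).

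Both catalytic paralogs were higher in every SIGLEC12 sample than in either Control sample. Stt3a was 3.83 and 3.70 in Control and 4.71, 4.40 and 4.84 in SIGLEC12 (0.88, SE 0.23, rescaled change 0.36). Stt3b was 2.73 and 3.005 in Control and 3.60, 3.40 and 3.73 in SIGLEC12 (0.71, SE 0.21, rescaled change 0.22). Their log2 ratio was 1.24 and 0.78 in Control and 1.17, 1.08 and 1.17 in SIGLEC12, so the SIGLEC12 values lay between the Control values. The difference of the means was 0.14 (exact two-sided permutation p = 0.7, adjusted p = 0.875 over 5 ratios, smallest possible p = 0.1).

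Tusc3 was 1.31 and 1.67 in Control and 2.25, 2.53 and 2.26 in SIGLEC12 (0.86, SE 0.19, rescaled change 0.47). Magt1 had the smallest change of the complex, at 1.73 and 1.75 in Control and 2.27, 2.07 and 2.46 in SIGLEC12 (0.52, SE 0.18, rescaled change 0.11). Their log2 ratio overlapped between the groups (difference 0.49, exact two-sided permutation p = 0.4, adjusted p = 0.667). Within the summed TPM of the 9 genes, Dad1 took 14.2% and 15.6% in Control and 16.8%, 19.3% and 16.2% in SIGLEC12. Rpn2 took 14.9% and 15.0% in Control and 13.4%, 11.9% and 13.4% in SIGLEC12, and Magt1 took 3.14% and 2.84% against 2.67%, 2.12% and 2.56%. The shares of these 3 genes did not overlap between the groups and those of the other 6 did. The shares have no background over all genes and were not tested.

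Related pathways were compared by lists that do not contain the 33 genes. The small OST subunits Ost4, Tmem258 and Krtcap2 lay where the other 9 did, from 0.67 for Ost4 to 0.97 for Tmem258 with a median of 0.80 (0.33 rescaled). As deposited all 3 were wholly higher in SIGLEC12, against 54.1% of all genes. Of 15 translocon and signal peptidase genes, which pass proteins into the ER beside the OST, 12 were higher at an unadjusted p no greater than 0.05, 4 of them by 2-fold (Sec61b, Ssr2, Ssr4 and Sec11c), with a median of 0.67 (0.16 rescaled). Sec61b, a channel subunit, was highest at 1.31 and Sec63, a chaperone cofactor, lowest at 0.21. Of 16 tested genes that trim the glycan and check folding in the ER, 11 were higher, with a median of 0.56 (0.10 rescaled), from 0.23 for the cargo receptor Lman1 to 1.16 for the disulfide isomerase Pdia3. Of 8 genes of nucleotide sugar supply 5 were higher (median 0.63, or 0.18 rescaled), from Gfpt1 (0.13) to Gnpnat1 (1.08), which act one after the other toward UDP-GlcNAc. Of 11 tested Golgi genes that remodel N-glycans 7 were higher (median 0.66, or 0.20 rescaled). Their changes ran from the mannosidase Man1a2 (0.18) to the GlcNAc transferase Mgat4b (0.96). After rescaling Sec63 (-0.21), Lman1 (-0.22), Gfpt1 (-0.39) and Man1a2 (-0.29) lay below 0. Sec61b, Pdia3, Gnpnat1 and Mgat4b were then 0.78, 0.62, 0.64 and 0.48.

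GPI anchor synthesis and O- and C-mannosylation also draw on dolichol phosphate mannose but attach no N-glycan. Their medians lay below that of all genes as deposited and close to it after rescaling. With a pseudocount of 0.1 they were 0.50 and 0.55, against 0.54 for all genes. Of 16 tested genes of GPI anchor synthesis, in which Dpm2 also takes part, 7 were higher, with a median of 0.34 (0.00 rescaled), from Pign (0.10) to Pigt (0.85). Of 7 tested genes of O- and C-mannosylation 0 were higher at an unadjusted p of at most 0.05 by limma, with a median of 0.28 (0.02 rescaled), from Tmtc3 (0.16) to Tmtc2 (0.47). Of 3 other dolichol genes, Dolpp1 (0.67) was higher at that threshold, whereas Nus1 (0.56) and Dhdds (0.25) did not pass it, and their median was 0.56 (0.13 rescaled). None of these genes was lower at that threshold, and none passed the adjusted one. The background for the counts of higher genes at an unadjusted p of at most 0.05 is the 33.4% of all genes given above. For the translocon genes that were also 2-fold higher it is 3.97%. After rescaling the counts of higher genes were 3 for the translocon, and 1 each for ER trimming, nucleotide sugar and GPI anchor genes. They were 0 for Golgi, O- and C-mannosylation and other dolichol genes. The background after rescaling is 4.45%. Rescaled, Pign was -0.31 and Pigt 0.35, and Tmtc3 was -0.24 and Tmtc2 0.16. Differences between lists were not tested.

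**Figure D4:**
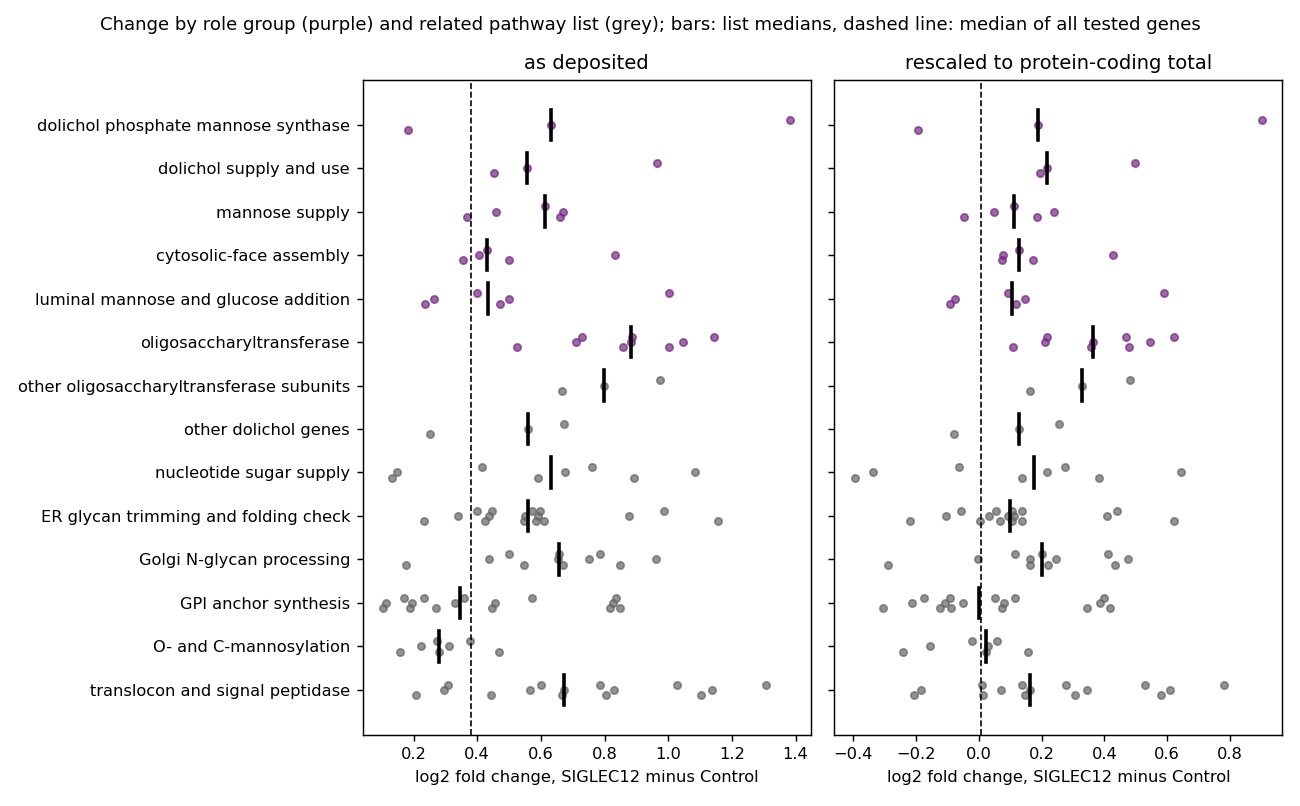
Log2 fold change of every tested gene of the 6 role groups (purple) and 8 related pathway lists (grey), as deposited on the left and rescaled on the right, with list medians as black bars and the median of all tested genes as a dashed line. The OST genes, the other OST subunits and the dolichol supply and use genes lie wholly to the right of the line in both panels. Every other list straddles it in the left panel, among them GPI anchor synthesis and O- and C-mannosylation.

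Larger changes went with higher levels. Across the 31 genes, which share the same 5 samples, the log2 fold change and the mean level had a Pearson r of 0.75 and a Spearman rho of 0.83 (0.57 and 0.63 rescaled). With a pseudocount of 0.1 in place of 1 they were 0.49 and 0.55. The added 1 shrinks the change of low genes. Transcript length showed a weak relation, with an r of -0.12 across the 31.

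The mean levels of the columnar, fibroblast, plasma and B cell, endothelial and T cell marker lists did not overlap between the groups as deposited. Those of the goblet, smooth muscle, myeloid and squamous lists overlapped. After rescaling the differences of means were 0.62 for columnar, 0.60 for fibroblast, 0.31 for plasma and B cell and 0.24 for endothelial markers. For T cell, goblet, smooth muscle, myeloid and squamous markers they were 0.05, 0.05, -0.19, 0.08 and -1.47. The tumors are bulk tissue, in which fewer cells of a type and less RNA per cell cannot be told apart. The columnar epithelium markers, all 12 of them detected, averaged 4.06 and 5.40 in Control and 5.62 to 6.27 in SIGLEC12, and the 7 goblet cell markers 5.02 and 6.03 against 5.78 to 6.37. The median log2 fold change of the 11 tested columnar markers was 0.75 rescaled. It was 0.08 when Control replicate 1 was also left out, which leaves 1 Control sample. The same 2 values for the OST genes were 0.37 and 0.41, and how the 2 lists relate was not tested. The 6 fibroblast markers averaged 1.17 and 1.25 in Control and 1.58 to 2.85 in SIGLEC12. The 8 plasma and B cell markers averaged 0.94 and 1.09 in Control and 1.27 to 2.00 in SIGLEC12. Among them the antibody light chain Igkc was 0.73 and 1.47 against 4.70, 2.03 and 2.42, Sdc1 was 5.45 and 4.77 against 5.11, 5.10 and 5.19, and Mzb1 and Cd79a stayed under 0.06 in all 5 samples. The 8 squamous markers averaged 6.75 and 5.40 in Control and 4.82 to 5.77 in SIGLEC12. With the mean columnar marker level as a covariate the median of the 31 members was 0.43, against 0.18 for all genes, and the 2-fold count was 1, against 1.41% of all genes. Smooth muscle, endothelial, myeloid and T cell lists averaged 3.05 and 3.21, 0.24 and 0.25, 1.61 and 1.03, and 0.10 and 0.12 in Control, against 2.99 to 4.22, 0.43 to 0.83, 1.15 to 2.20, and 0.14 to 0.25 in SIGLEC12. That covariate was taken on the deposited scale, so it also carries the scaling of each sample, and it did not overlap between the groups. With 5 samples the fit cannot tell columnar content, scaling and group apart. The part of these cell types in the differences of the 33 genes was not tested.

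**Figure D5:**
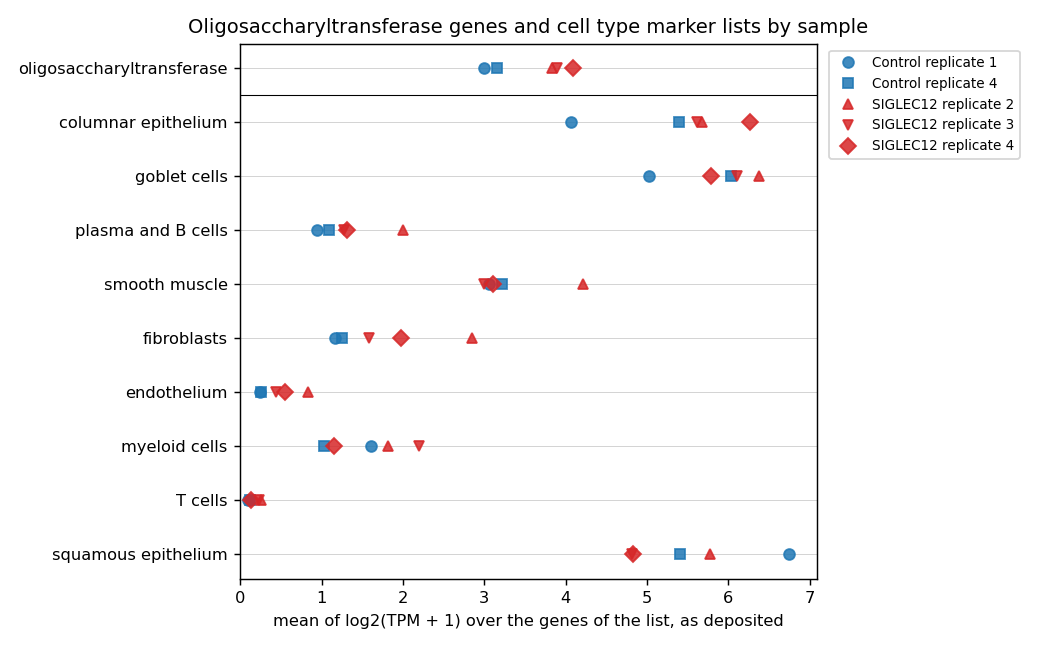
Mean log2(TPM + 1) over the 9 OST genes (top) and over each cell type marker list in each sample, blue for Control and red for SIGLEC12. The OST means fall into separate groups, and Control replicate 1 has the lowest columnar and goblet means and the highest squamous mean.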

How the data were processed

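Colon tumor RNA of 2 Control and 3 SIGLEC12 mice was analysed, grouped by the sample titles. The authors deposited log2(TPM + 1) values for 52143 Ensembl mouse entries. The submitters' processing notes name kallisto 0.45.0 and GRCm38. The labels name a stranded total RNA kit, and the study's methods an mRNA kit and technical replicate libraries. Whether a column averages these, whether a row sums the transcripts of its gene, and the strand setting are not given in the sources used here. TPM keeps no counts, so no count model and no counting interval were possible, and each sample is 1 mouse. Gene coordinates and biotypes came from GENCODE M21 and promoters from RefSeq. The 2 rows of Alg6 held identical values and 1 was kept.

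Genes with a TPM of at least 1 in at least 2 samples (10338) were tested on the deposited scale with limma 3.58.1 (R 4.3.3, lmFit and eBayes with trend), with Benjamini-Hochberg adjustment over all of them. Fold changes are on the log2(TPM + 1) scale, which understates the change of low genes. The fit was tested on simulated data. The test of each ratio was an exact permutation of the group labels, with 10 arrangements. Alternatives were other scalings, removal of a length trend, a smaller pseudocount (0.1), filters on low values that were absent or stricter (5 TPM), columnar markers as a covariate and leaving out each sample.

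The members, pathway lists and marker lists were chosen with earlier results of these data known. Every member is named. Values by sample are given for members past the 2-fold threshold, the Dpm genes, paralog pairs, Dpagt1, all OST subunits, and the largest and smallest change of each role group. Each pathway list gives its largest and smallest change. Beside the genes counted in these lists, 1 pathway gene and 1 marker are not reported here.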

Additional observations from a re-analysis of the deposited data

How the results depend on the processing

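The difference between the groups depends mainly on how each sample is scaled. The count of members at least 2-fold higher at an unadjusted p of at most 0.05, 5 as deposited, was 0 after rescaling to the protein-coding total, 0 with median-ratio size factors, 0 with quantile normalization and 0 when a length trend was also removed. In these 4 fits 0.368% to 0.580% of all genes were called. The count was 8 with a pseudocount of 0.1 (10.5% of all genes), 1 with the epithelial covariate (1.41%), 0 after rescaling without Control replicate 1 (0.261%), an alternative added after seeing the data, and 2 to 10 when any sample was left out as deposited (1.38% to 13.2%). SIGLEC12 lay wholly higher in 17 members after rescaling (15.6% of all genes), 14 with size factors (15.9%), 13 with quantile normalization (18.2%) and 13 of 14 at a TPM of at least 5 (65.6%). When a sample was left out this held for 27 to 30 (57.1% to 79.0%), or for 23 after rescaling without Control replicate 1 (23.2%), where 2 members were wholly lower (35.7%). The median log2 fold change of the members is given with that of all genes in the same fit in brackets. It was 0.61 as deposited (0.38), 0.19 rescaled (0.01) and 0.18 with size factors (0.001). It was 0.20 with quantile normalization (0.03) and 0.21 with the length trend removed (0.05). With a pseudocount of 0.1 it was 0.77 (0.54), at a TPM of at least 5 0.88 (0.60) and with the covariate 0.43 (0.18). Rescaled without Control replicate 1 it was 0.19 (-0.05), and when a sample was left out as deposited 0.50 to 0.69 (0.26 to 0.52).

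With limma, 0 members passed an adjusted p of 0.05 except when Control replicate 4 was left out, where 8 did, against 14.4% of all genes. That fit has 1 Control sample, assumed to vary like the others.

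Of the 31 tested members, 25 kept their direction in each of the 14 alternatives that gave them a value, and 6 reversed in at least 1. At a TPM of at least 5, 14 members had a value. The Dpm1 change was -0.19 rescaled, -0.20 with size factors, -0.15 with quantile normalization, -0.20 with the length trend removed, -0.041 with the covariate and -0.31 rescaled without Control replicate 1. In the same order Gmppb was -0.046, -0.052, -0.0038, -0.048, -0.10 and -0.18. Under the first 4 of these Alg3 was -0.093, -0.10, -0.049 and -0.11, and Alg8 was -0.077, -0.086, -0.034 and -0.084. Pmm2 was -0.25 with the covariate and -0.21 rescaled without Control replicate 1, and Mpi was -0.10 in the latter. The cause of these changes was not tested beyond the scaling itself.

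When a sample was left out, the difference in log2 ratio ran from -0.094 to 0.37 for Stt3a to Stt3b and from -0.65 to 0.54 for Pmm1 to Pmm2. The other 3 tested ratios kept their sign. No paired analysis was possible because replicate 4 is the 1 number found in both groups. Precision is limited by the number of mice, and read depth is unknown.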
